A study of Bos taurus with 8 samples.

Results

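The subunits of the oxidative phosphorylation complexes were followed in cattle liver as 85 array probes for 84 genes, out of 15008 probes on the array. They were chosen by gene name alone: non-control probes whose name in the files begins with NDUFA, NDUFB, NDUFC, NDUFS or NDUFV and a digit, with UQCR, with ATP5 or with COX4 to COX8, or equals SDHA, SDHB, SDHC, SDHD, CYC1 or CYCS. Of these, 36 genes belong to complex I, 4 to complex II, 9 to complex III, 17 to complex IV and 15 to complex V, 1 encodes cytochrome c, and ATP5S and ATP5SL (now DMAC2L and DMAC2) only share the name. A choice by name passes over subunits that the files call otherwise, such as COX6C under a clone name. The liver RNA came from Holstein bulls aged 5 to 6 months at the start of the trial. In the 4 g group, 4 g of an egg-yolk antibody against bacterial lipopolysaccharide was put into the rumen of each animal by fistula daily over 14 days. The 0 g group was handled in the same way with no antibody. Both groups ate hay for 11 days, then a high-grain diet for 2 days that brings on subacute ruminal acidosis (SARA), and then hay again, and both were sampled 2 days after the challenge. The same animals, numbers 19, 20, 23 and 24, gave 1 array in each group, so 4 arrays at 4 g are paired with 4 arrays at 0 g. The 2 g group and other cattle were not analysed here.

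Oxidative phosphorylation takes place in the inner mitochondrial membrane. Complexes I and II pass electrons from NADH and succinate to coenzyme Q, complex III hands them on to cytochrome c, and complex IV gives them to oxygen. Complexes I, III and IV pump protons as they do so, and complex V, the ATP synthase, makes ATP as the protons flow back. Most subunits are encoded in the nucleus, the core membrane subunits of all complexes but complex II in mitochondrial DNA. In liver this chain pays for costly work such as urea and glucose synthesis.

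A level in this text is the log2 of a probe's processed signal minus the 75th percentile of its array, and a difference is the level at 4 g minus the level at 0 g in the same animal. Where 4 values are listed, they are those of animals 19, 20, 23 and 24 in that order. Several arrays stood apart. The 75th percentile of the signal was 121.8 for animal 19 at 4 g and 121.3 for animal 20 at 0 g, called the 2 dim arrays from here on, against 210.9 to 300.3 on the other 6. Between 64.4% and 80.4% of all probes on an array were well above background, a flag the scanner software sets. Some probes also raise a doubt about the labels of animals 23 and 24. Over the array, 27 probes had 2 separate levels with a gap of over 2.0 log2 units and did not simply set the dim arrays apart. The 4 g and the 0 g array shared a level for 25 of these 27 in animal 19 and for 26 in animal 20, but for only 11 in animal 23 and 11 in animal 24. The 4 g arrays of animals 23 and 24 shared a level with each other for 24 of the 27, and their 0 g arrays for 20. GIMAP4, an immune GTPase, is one such gene, at 4.32, 0.07, −0.25 and −0.08 on the 4 g arrays and 4.08, 0.23, 3.28 and 3.41 on the 0 g arrays. In animals 23 and 24 this split falls largely between the doses, so a wrong label and a dose difference cannot be told apart there. Over all tested probes, the 2 arrays of an animal deviated from their group means with correlations of −0.19, −0.18, 0.21 and 0.13. Whether the labels are right was not tested. Results are therefore also given for animals 19 and 20 alone, for animals 23 and 24 alone, and without pairing. All arrays came from 1 slide and 1 scan, with animals 19 and 20 in its first row and 23 and 24 in its second, so slide row and these pairs of animals cannot be told apart.

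The tissue label was checked against cell type markers. All 20 hepatocyte markers were well above background on all arrays, and the log2 of their summed signal ranged from 10.52 to 11.02 at 4 g and from 10.45 to 11.09 at 0 g. Of 13 markers of squamous epithelium, the tissue that the extraction protocol names, 3 to 4 were above background at 4 g and 4 to 6 at 0 g. Of 16 pancreatic acinar markers, 5 to 13 were above background at 4 g and 5 to 16 at 0 g; their summed signal stood at 11.58 on the 0 g array of animal 23 and between 3.50 and 4.74 on the other 7 arrays. The 18 muscle markers summed to between −1.37 and 0.20 at 4 g and between −1.09 and 0.22 at 0 g. Of the tested markers, 3 of 4 muscle genes, 2 with an unadjusted p under 0.05, and 10 of 10 pancreatic genes were lower at 4 g. So were 4 of 4 squamous epithelium genes, with 0 at an unadjusted p under 0.05; the summed signal of that list ranged from −2.91 to −1.17 at 4 g and from −2.78 to −1.48 on 3 arrays at 0 g, and stood at 1.42 on the 0 g array of animal 19, and its part in the results was not tested. Stellate and smooth muscle markers were lower at 4 g for 9 of 11 genes, 4 with an unadjusted p under 0.05 and none after adjustment in limma. Red blood cell, Kupffer cell and adipocyte markers were lower at 4 g for 3 of 5, 6 of 7 and 2 of 4 tested genes, again with none past the adjusted threshold. Over all tested probes, 1.10% had an unadjusted p under 0.05 in limma and 53.6% were higher at 4 g. The part of a different cell make-up in the results was not tested. In bulk RNA, fewer cells of a type and less RNA per cell cannot be told apart.

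A probe is a 60-base stretch of a transcript, and 3 sets of them are shown as the files give them, because the results below differ by where in a transcript a probe sits. Positions are those of the cattle assembly UMD 3.1 in the files. The first set holds the 4 subunits of complex II and UQCRC1. The probe of SDHA, the flavoprotein that oxidises succinate, lies at chr20:71955136-71956157 on the minus strand, a span far longer than the probe itself, so it joins sequence from both sides of an intron. Those of SDHB, the iron-sulfur protein (chr2:136148176-136148235, plus), of SDHD, a membrane anchor (chr15:22733686-22733745, plus), and of UQCRC1, a core protein of complex III (chr22:51851014-51851073, plus), each lie on 1 genomic run. No position was used for SDHC, the other membrane anchor.
SDHA: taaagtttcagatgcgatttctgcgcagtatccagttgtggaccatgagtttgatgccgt
SDHB: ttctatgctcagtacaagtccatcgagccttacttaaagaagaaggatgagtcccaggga
SDHC: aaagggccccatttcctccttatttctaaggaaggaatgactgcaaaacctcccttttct
SDHD: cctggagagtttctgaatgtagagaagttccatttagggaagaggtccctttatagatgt
UQCRC1: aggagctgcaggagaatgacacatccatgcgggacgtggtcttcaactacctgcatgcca

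The second set holds probes with the hexamer AATAAA, in capitals, the signal that stands shortly before the poly(A) tail in most transcripts. They belong to UQCRQ, a small subunit of complex III (chr7:46070259-46070318, plus), to CYC1, its cytochrome c1 (chr14:1930183-1930239, minus), to ATP5I, now ATP5ME, a membrane subunit of complex V (chr6:108851279-108851338, minus), and to NDUFS5, an accessory subunit of complex I (chr3:107558705-107558764, minus). On the printed strand, AATAAA or ATTAAA was found in 21 of the 76 member probes that were tested (27.6%), against 14.4% of all tested probes.
UQCRQ: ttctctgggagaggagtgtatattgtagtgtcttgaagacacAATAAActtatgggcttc
CYC1: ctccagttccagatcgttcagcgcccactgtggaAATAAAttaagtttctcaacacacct
ATP5I: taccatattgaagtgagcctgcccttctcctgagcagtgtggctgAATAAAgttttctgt
NDUFS5: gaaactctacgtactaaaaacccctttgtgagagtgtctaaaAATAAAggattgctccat

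The third set holds probes of ubiquitous subunits that gave no signal above background. They stand for COX5A, a core-binding subunit of complex IV (chr21:34164061-34164120, plus), NDUFA1 and NDUFB4, accessory subunits of complex I (chrX:4070475-4070534, plus, and chr1:65927319-65927378, plus), and ATP5G3, now ATP5MC3, which encodes the c subunit of the ATP synthase rotor (chr2:21703958-21704017, plus).
COX5A: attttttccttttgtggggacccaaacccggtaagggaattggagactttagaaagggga
NDUFA1: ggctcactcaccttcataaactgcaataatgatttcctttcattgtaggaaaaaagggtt
NDUFB4: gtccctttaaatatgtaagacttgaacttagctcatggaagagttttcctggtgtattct
ATP5G3: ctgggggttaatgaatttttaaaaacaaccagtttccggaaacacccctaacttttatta

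Most members were well measured. Of the 85 probes, 70 (82.4%) were well above background on all 8 arrays, against 61.6% of all probes on the array. Another 6 were above background on some arrays: SDHA and NDUFA3 on 7, COX4I2 on 6, UQCRB on 5, and COX7B2 and NDUFA11 on 4. The other 9 (10.6%, against 16.1% of all probes) were not well above background on any array, so their transcripts have an upper bound only: NDUFA1, NDUFA5, NDUFB1 and NDUFB4 of complex I, COX5A, COX7A1, COX8A and COX8B of complex IV, and ATP5G3 of complex V. Several of these encode subunits that every cell with mitochondria uses. The source of the probe sequence moved with this: of 59 member probes designed on a RefSeq mRNA, 57 were above background on all 8 arrays and none on 0, whereas of 18 designed on an expressed sequence tag, a single-pass read of a cDNA clone, 6 were above background on all 8 and 8 on 0. Over the whole array, 66.6% of 11415 RefSeq mRNA probes and 33.3% of 429 tag probes were above background on all 8. Whether these 9 transcripts were scarce or their probes poor was not tested. Tests were run on probes above background on at least 4 arrays, which kept 76 member probes for 75 genes and 10985 probes in all.

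No member passed the test of 4 g against 0 g. With the animals as blocks in limma, and p-values adjusted over all 10985 probes by Benjamini-Hochberg, 0 of 76 member probes passed an adjusted p of 0.05 (0% of all tested probes did), and 0 of 76 had an unadjusted p under 0.05 (1.10% of all, 121 probes, did). The smallest member p was 0.182 (adjusted p = 1.00), that of NDUFB8. The median difference over the members was 0.05 log2 units, against 0.02 over all tested probes, and 50 of 76 members (65.8%) were higher at 4 g, against 53.6% of all. The gap between these shares depended on the scaling: 56.6% of members and 55.9% of all probes were higher with quantile normalization, 73.7% and 61.1% with median centring, and 69.7% and 37.3% with normexp background correction. The 95% interval of a member's difference had a median half-width of 0.68 log2 units, or 1.60-fold, and 54 of 76 intervals (71.1%, against 64.3% of all probes) excluded a 2-fold change in either direction. The block takes out differences in level between the animals. The members' p-values therefore rest in part on how far the differences, 4 g minus 0 g, varied among these 4 animals. They rest also on a variance that limma draws from all tested probes. For members with steady differences this makes the SE larger than their own spread would. Each animal gave a single array per group, so this variation includes that between arrays.

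**Figure D1:**
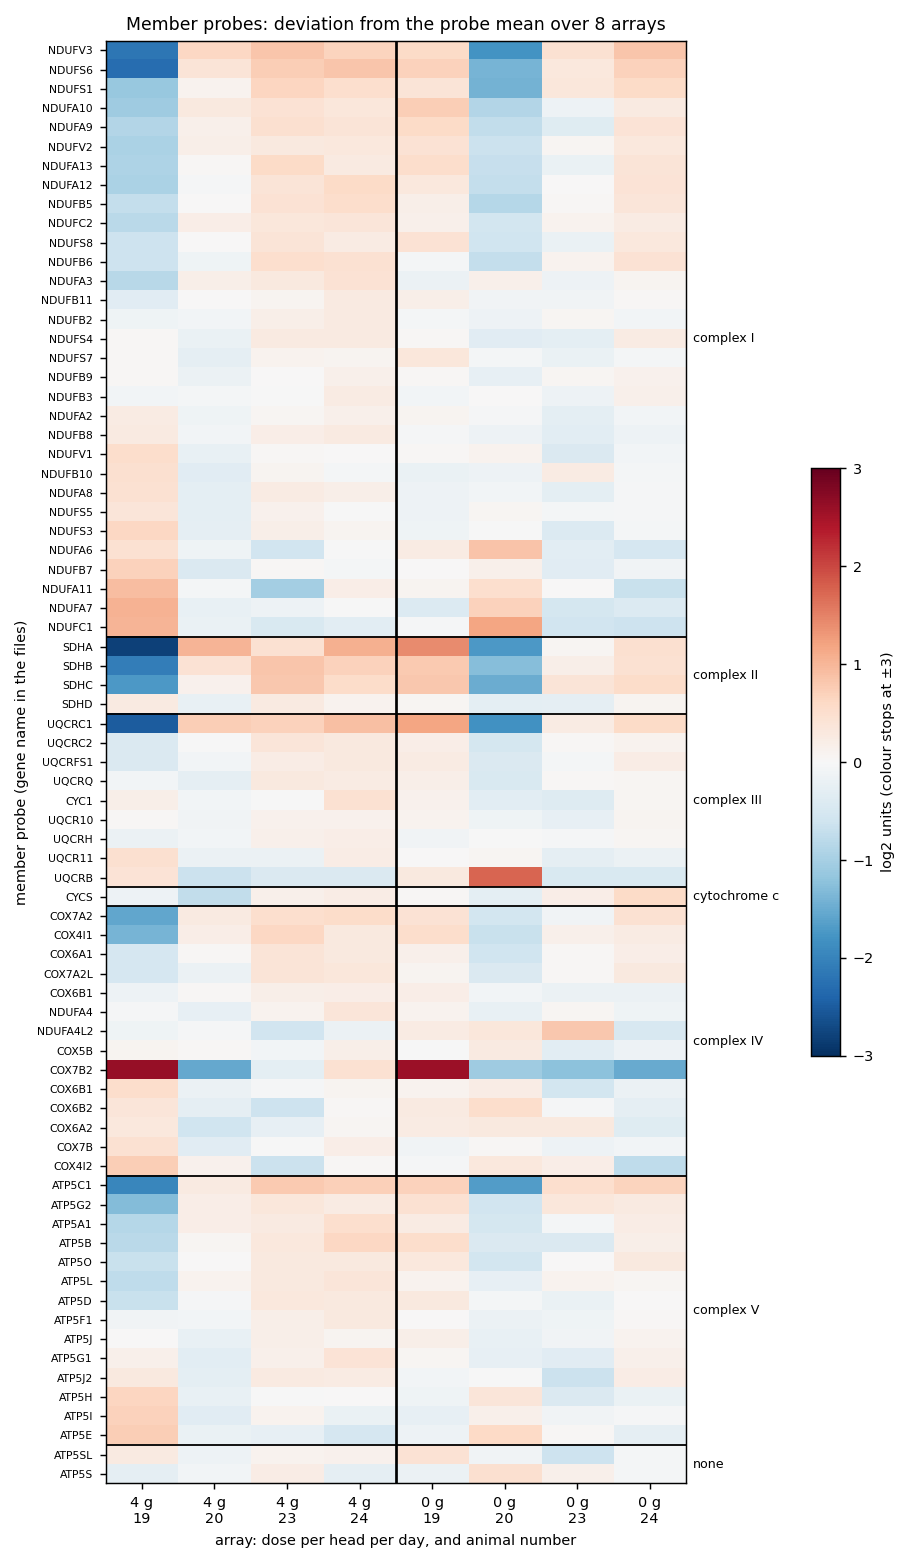
Deviation of 75 of the 76 tested member probes (rows, by complex and then by the difference between the 2 dim arrays and the other arrays of animals 19 and 20) from its mean over the 8 arrays (columns, 4 g left and 0 g right, animal number below), in log2 units. The strongest blue cells stand in 2 columns, animal 19 at 4 g and animal 20 at 0 g, in the rows of SDHA, SDHB, SDHC, UQCRC1, NDUFV3, NDUFS6 and ATP5C1, while COX7B2 is red on both arrays of animal 19.

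The animals did not move alike. In animal 19, 29 of 76 members (38.2%) were higher at 4 g, against 54.3% of all probes. In animal 20, 43 (56.6%) were higher, against 46.4% of all. In animal 23 the count was 65 (85.5%, against 49.3%) and in animal 24 it was 62 (81.6%, against 58.6%). Members higher at 4 g in both animals 23 and 24 numbered 55 of 76 (72.4%, against 27.0% of all probes), and 4 were lower in both (5.26%, against 19.0%). This count depended on the scaling. It was 42 (55.3%, against 30.7% of all probes) with median centring and 39 (51.3%, against 29.7%) with quantile normalization. With normexp correction it was 9 (11.8%, against 21.6%), below the share of all probes, and 19 members (25%) were higher in animal 24, against 70.3% of all probes. The fit on animals 23 and 24 alone gave a median of 0.25 over the members and 0.03 over all probes, with 0 of 76 called after adjustment and 1 at an unadjusted p under 0.05 (COX7B2), against 4.13% of all probes. The fit on animals 19 and 20 alone had 26 of 76 members (34.2%) higher at 4 g, against 50.0% of all probes, and called 0. Without the block 0 of 76 members were called and 0 had an unadjusted p under 0.05, against 0.956% of all probes. The pancreatic signal sits on the 0 g array of animal 23, and the median over members without that array was 0.03; its part in the differences of animal 23 was not tested.

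Across the 76 members, the differences of animal 19 correlated with those of animal 20 at r = −0.90, and those of animal 23 with those of animal 24 at r = −0.10. Over all 10985 probes the values were −0.70 and 0.02. The arrays of animals 19 and 20 share a slide row, and each of these animals has 1 dim array, at 4 g in animal 19 and at 0 g in animal 20.

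Set side by side, the complexes had median differences between −0.10 and 0.09. With 1 probe per gene, the medians were 0.04 for complex I (32 genes, SD of the 4 animal medians 0.23), −0.10 for complex II (4 genes, SD 1.86), 0.09 for complex III (9 genes, SD 0.15), 0.09 for complex IV (13 genes, SD 0.24) and 0.04 for complex V (14 genes, SD 0.35), against 0.02 over all 10952 tested genes (SD 0.07). Each of the 5 medians was smaller in size than its SD. That SD is the spread of the 4 animal medians and not the error of the median over fitted differences. It does not show how near to 0 a median lies. Complex II varied most between animals, at −2.71, 1.66, 0.49 and 0.13, and complex III least, at −0.06, 0.20, 0.27 and 0.19. The medians of complex I were −0.19, 0.07, 0.37 and 0.11, those of complex IV 0.03, −0.22, 0.24 and 0.30, and those of complex V −0.51, 0.06, 0.30 and 0.13. In animals 23 and 24, 23 of 32 complex I genes, 3 of 4 of complex II, 9 of 9 of complex III, 9 of 13 of complex IV and 9 of 14 of complex V were higher at 4 g in both, against 27.0% of all tested probes. With normexp correction these counts were 2, 2, 1, 1 and 1, against 21.6%. No test was made between the complexes, since their genes share arrays.

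**Figure D2:**
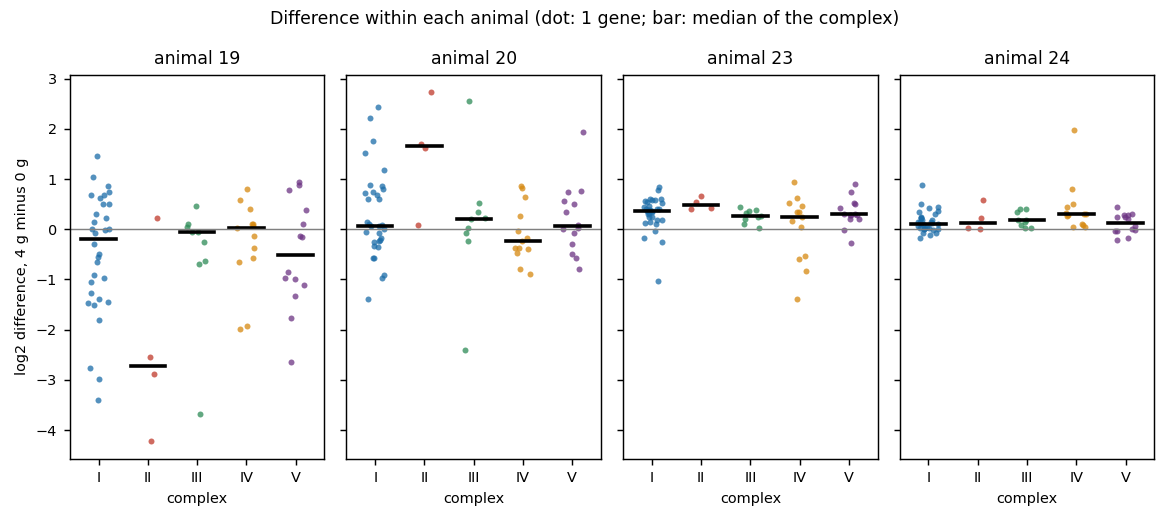
Log2 difference, 4 g minus 0 g, within each of the 4 animals (panels) for the genes of each complex (dots, 1 probe per gene) with the median of the complex (bar). Animals 19 and 20 show wide spreads with opposite signs, widest for complex II at medians of −2.71 and 1.66, and animals 23 and 24 show narrow spreads with most dots above 0, which in animal 24 does not hold with normexp correction (19 of 76 members higher).

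In complex I, which oxidises NADH, 24 of 32 tested genes had a positive difference and 8 a negative one, with a range of −0.17 to 0.33. Over all tested probes 53.6% had a positive difference, a share that depended on the scaling as given above. NDUFB8, an accessory subunit of the membrane arm, stood at 4.57, 4.21, 4.51 and 4.58 at 4 g, against 4.26, 4.14, 3.99 and 4.14 at 0 g. It was higher at 4 g in 4 of 4 animals, by 0.33 ± 0.22 (SE; adjusted p = 1.00 in limma), although the highest 0 g array lay above the lowest 4 g array. Among all tested probes, 2.92% were higher at 4 g in 4 of 4 animals, and among members 4 of 76 were (5.26%): NDUFB8, SDHD and CYC1, and NDUFS4, named here after its values were seen. NDUFS3, a core subunit of the peripheral arm, stood at 4.02, 3.14, 3.59 and 3.48 at 4 g, against 3.28, 3.40, 3.00 and 3.34 at 0 g. Its difference was 0.30 ± 0.26 (SE), with 3 of 4 animals higher. NDUFA8, an accessory subunit, averaged 2.58 ± 0.32 at 4 g and 2.29 ± 0.11 at 0 g (SD, n = 4 each), a difference of 0.29 that was likewise higher in 3 of 4 animals.

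The catalytic head of complex I behaved in 2 ways across arrays. NDUFV1, the flavoprotein that takes electrons from NADH, stood at 5.08, 4.32, 4.59 and 4.57 at 4 g, against 4.59, 4.65, 4.12 and 4.47 at 0 g. Its levels overlapped between the groups and the difference was 0.18 ± 0.25 (SE). NDUFS1, the largest iron-sulfur subunit, stood at −1.09, 0.15, 0.69 and 0.54 at 4 g, against 0.43, −1.37, 0.38 and 0.62 at 0 g. Its lowest value in each group was that of the dim array, and the difference of 0.06 carried an SE of 0.48. NDUFA3 and NDUFA11, accessory subunits above background on 7 and 4 arrays, had differences of 0.04 ± 0.27 and 0.03 ± 0.40 (SE) over all 8. Those of NDUFA11 in the 4 animals, 0.86, −0.57, −1.03 and 0.88, had the signs shared by most member probes with no signal.

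Complex II, which oxidises succinate and is also an enzyme of the tricarboxylic acid cycle, had the largest swings. SDHA stood at −4.92, −1.12, −1.67 and −1.07 at 4 g, against −0.70, −3.85, −2.07 and −1.66 at 0 g. Its low values were those of the dim arrays, and it failed the background flag on 1 array, that of animal 19 at 4 g. SDHB stood at −0.34, 2.17, 2.57 and 2.44 at 4 g, against 2.54, 0.47, 1.91 and 2.21 at 0 g. SDHC stood at −3.81, −1.95, −1.26 and −1.53 at 4 g, against −1.26, −3.57, −1.69 and −1.53 at 0 g. All 3 thus had 1 low array in each group, which left mean differences of −0.12, −0.07 and −0.12 with SEs of 1.03, 0.71 and 0.64. SDHD, the fourth subunit, stood at 3.82, 3.34, 3.83 and 3.66 at 4 g, against 3.60, 3.26, 3.28 and 3.63 at 0 g. It showed no low array, and its difference of 0.22 ± 0.22 (SE) was positive in 4 of 4 animals.

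In complex III, which oxidises coenzyme Q, 7 of 9 genes had a positive difference, against 53.6% of all tested probes. CYC1, the cytochrome c1 that docks cytochrome c, stood at 4.68, 4.42, 4.51 and 4.96 at 4 g, against 4.65, 4.20, 4.12 and 4.56 at 0 g. It was higher at 4 g in 4 of 4 animals, by 0.26 ± 0.22 (SE; adjusted p = 1.00 in limma), and the groups overlapped. UQCRC1 stood at −3.11, 0.13, 0.08 and 0.31 at 4 g, against 0.57, −2.42, −0.36 and −0.04 at 0 g, again low on the 2 dim arrays alone. UQCRFS1, the Rieske iron-sulfur protein, averaged 4.08 ± 0.34 at 4 g and 4.08 ± 0.31 at 0 g (SD, n = 4 each), a 95% interval of the difference between −0.64 and 0.65. UQCR11, a small subunit, averaged 4.36 ± 0.32 at 4 g and 4.18 ± 0.15 at 0 g (SD, n = 4 each). UQCRB, which binds coenzyme Q, was above background on 1 array at 4 g and 4 at 0 g, so its levels at 4 g are in the main not above background; in animal 20 it stood at −5.93 at 4 g, against −3.53 at 0 g on the dim array.

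Cytochrome c (CYCS), the mobile carrier between complexes III and IV, stood at −0.82, −1.42, −0.52 and −0.44 at 4 g, against −0.64, −0.97, −0.48 and −0.09 at 0 g. It was the 1 member lower at 4 g in 4 of 4 animals (1.32% of members, against 2.16% of all probes). The difference was −0.25 ± 0.22 (SE; adjusted p = 1.00 in limma), and the groups overlapped.

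In complex IV, which reduces oxygen, the widely expressed subunits and the isoforms typical of other tissues were both on the array. COX4I1, the common isoform of subunit 4, stood at 1.35, 2.96, 3.38 and 3.04 at 4 g, against 3.28, 2.09, 2.91 and 3.00 at 0 g. COX7A2, the liver isoform of subunit 7A, stood at 0.98, 2.81, 3.05 and 3.10 at 4 g, against 2.97, 1.99, 2.43 and 2.99 at 0 g. Both were lowest on the dim array of each group, with differences of −0.14 ± 0.47 and −0.11 ± 0.49 (SE). COX6A1, the liver isoform of subunit 6A, averaged 3.69 ± 0.40 at 4 g and 3.59 ± 0.37 at 0 g, and NDUFA4, long counted in complex I and now placed in complex IV, 4.46 ± 0.25 at 4 g and 4.36 ± 0.16 at 0 g (SD, n = 4 each). COX6B1 had 2 probes at different places. That on chromosome 18, at a mean level of 5.08, had a difference of 0.20, and that on chromosome 5, at 0.44, had a difference of 0.12. Whether the second reports another locus was not tested. No probe was above background for COX8A, so neither the common nor the muscle isoform of subunit 8 was measured.

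Isoforms typical of muscle or other tissues were covered by 7 genes, 2 of them with no signal. COX7A1 and COX8B, the muscle isoforms of subunits 7A and 8, were not well above background on any array. COX6A2, the muscle isoform of subunit 6A, stood at −4.21, −5.12, −4.75 and −4.45 at 4 g, against −4.26, −4.22, −4.21 and −4.89 at 0 g. COX6B2, the testis isoform of subunit 6B in human, averaged −4.05 ± 0.43 at 4 g and −3.81 ± 0.34 at 0 g (SD, n = 4 each). COX4I2, the lung isoform of subunit 4, was above background on 4 arrays at 4 g and 2 at 0 g. It gave a difference of 0.15 ± 0.35 (SE) over all 8. Its differences of 0.79, −0.17, −0.84 and 0.80 had the signs shared by most member probes with no signal, COX5A among them. The part of background in them was not tested. NDUFA4L2, a relative of NDUFA4 that hypoxia induces in human cells, stood at −3.31, −3.21, −3.75 and −3.36 at 4 g, against −2.93, −2.83, −2.36 and −3.66 at 0 g. Its difference of −0.46 ± 0.32 (SE; adjusted p = 1.00 in limma) was negative in 3 of 4 animals, and the highest 4 g array stood above 1 of the 4 at 0 g. The muscle markers were most often above background on the 0 g arrays of animals 19 and 23, at 9 and 10 of 18, against 4 to 5 at 4 g and 3 and 5 on the other 0 g arrays; their part in the isoform levels was not tested.

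In complex V, 8 of 14 genes had a positive difference and 6 a negative one, between −0.26 and 0.25. That share is near the 53.6% of all tested probes. ATP5A1 (now ATP5F1A), the alpha subunit of the catalytic head, stood at 5.16, 6.23, 6.28 and 6.54 at 4 g, against 6.26, 5.49, 5.97 and 6.24 at 0 g. ATP5B (now ATP5F1B), the catalytic beta subunit, stood at −0.28, 0.60, 0.84 and 1.15 at 4 g, against 1.05, 0.10, 0.10 and 0.70 at 0 g. Their differences were 0.06 ± 0.35 and 0.09 ± 0.39 (SE), with the lowest 4 g value on the dim array in both. ATP5J2 (now ATP5MF), a membrane subunit, averaged 0.83 ± 0.28 at 4 g and 0.58 ± 0.37 at 0 g, ATP5H (now ATP5PD), of the peripheral stalk, 4.51 ± 0.37 at 4 g and 4.31 ± 0.33 at 0 g, and ATP5G1 (now ATP5MC1), 1 of the genes for the c subunit, 5.69 ± 0.30 at 4 g and 5.49 ± 0.24 at 0 g (SD, n = 4 each). Each was higher at 4 g in 3 of 4 animals and none passed the test.

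**Figure D3:**
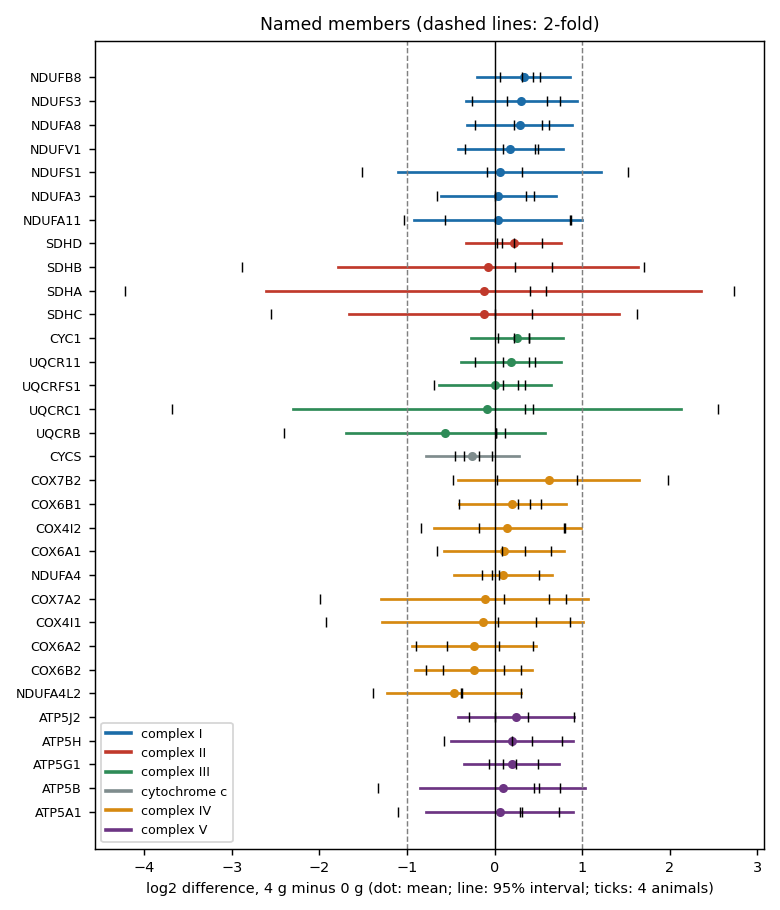
Log2 difference, 4 g minus 0 g, of 32 named members (rows, by complex): mean (dot), 95% interval from limma (line) and the 4 animals (ticks), with dashed lines at a 2-fold change. Every interval spans 0, and the widest are those of SDHA, UQCRC1, SDHB and SDHC, whose ticks for animals 19 and 20 lie on opposite sides.

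Large deviations among the members stood mostly on the 2 dim arrays. The dim arrays comprise 1 array of each group, so a shift equal on both cancels in the mean of 4 g against 0 g and widens its error. An unequal shift cancels only in part. The differences of animals 19 and 20 were −1.52 and 1.52 for NDUFS1, but −4.22 and 2.73 for SDHA and −3.68 and 2.55 for UQCRC1. The median of complex II was −0.10 in the full fit and 0.37 on animals 23 and 24 alone. SDHA was above background on 1 of the 2 dim arrays, and the other was taken at its lowest signal among probes well above background. SDHA was then at least 10.6-fold lower on the dim arrays than on the other arrays of animals 19 and 20. UQCRC1 was lower by 3.11 log2 units, SDHB by 2.29 and SDHC by 2.09, and NDUFV3, NDUFS6 and ATP5C1, named after their values were seen, by 2.59, 2.38 and 2.30. SDHD, by contrast, was at 0.07 and UQCR10, also named afterwards, at −0.04. In all, 16 of 76 members (21.1%) were lower on the dim arrays by more than 1 log2 unit on average, against 10.8% of all tested probes, and 8 (10.5%, against 2.28%) by more than 2. On both dim arrays separately, 10 members (13.2%, against 7.11%) were lower by over 1. The arrays were grouped here by their brightness, and no test was made of this difference.

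By complex, the median difference of the dim arrays was −2.19 for complex II, −0.30 for complex V, −0.09 for complex III, −0.07 for complex I and 0.16 for complex IV, against 0.08 over all tested genes. Within complex IV, the 7 widely expressed subunits had a median of −0.06 and the 5 isoforms typical of other tissues 0.45. Genes lower by more than 1 log2 unit numbered 8 of 32 in complex I, 3 of 4 in complex II, 1 of 9 in complex III, 2 of 13 in complex IV and 2 of 14 in complex V. Thus the members of 1 complex, which are built into it in fixed ratios, moved unequally on these arrays, as SDHA and SDHD of complex II did.

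The position of the probe moved with the size of this difference. The 21 member probes with the hexamer AATAAA or ATTAAA, such as those printed for UQCRQ, CYC1, ATP5I and NDUFS5, had a median of −0.03 on the dim arrays against the others, and 1 of them (4.76%) was lower by more than 1. The 55 without it had a median of −0.30, and 15 (27.3%) were lower by more than 1. The 8 member probes that span an intron, such as that of SDHA, had a median of −1.29, and 6 of them (75%) were lower by more than 1; ATP5H was an exception at 0.68. These classes overlap, and the 1 hexamer probe lower by more than 1 also spans an intron. The 48 member probes with neither feature had a median of −0.07, near that of the hexamer probes. Of these 48, 10 (20.8%) were lower by more than 1. The same order of shares held over all tested probes. Lower by more than 1 were 3.23% of 1581 with the hexamer, 12.1% of 9392 without it and 22.3% of 1566 across an intron. With neither feature, 10.1% of 7885 were. A probe with the hexamer usually lies near the end of its transcript, and a probe across an intron further in. With complex II left out, 23.5% of the 51 member probes without the hexamer were still lower by more than 1. What set the 2 arrays apart, RNA quality included, was not tested.

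**Figure D4:**
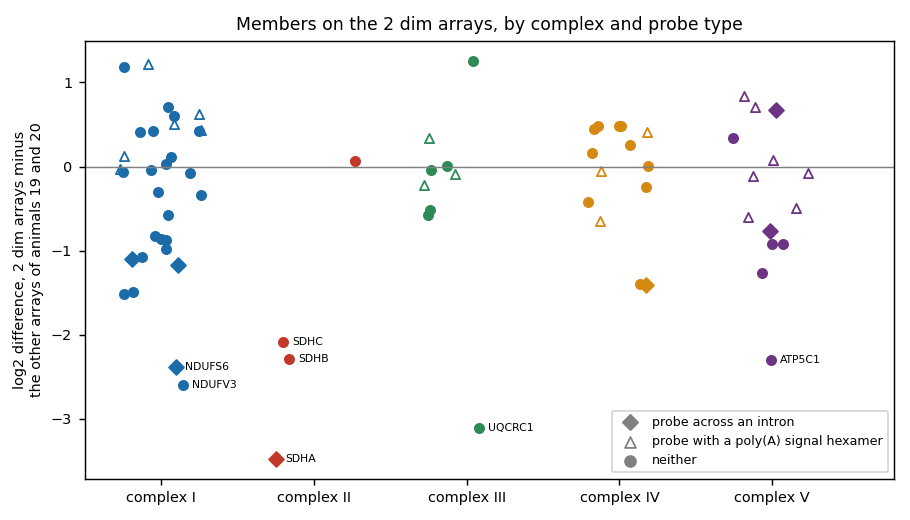
Mean log2 level on the 2 dim arrays (4 g of animal 19, 0 g of animal 20) minus that on the other arrays of the same animals (0 g of animal 19, 4 g of animal 20), for the tested member probes of each complex, 1 probe of complex I left out. Filled diamonds are probes across an intron, open triangles probes with a poly(A) signal hexamer and filled circles the rest; the 7 named points lie under −2, and no triangle is among them.

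With the dim arrays given a term of their own in the fit, an alternative chosen after seeing the data, the median half-width of a member's interval was 0.47 log2 units, or 1.38-fold, and 73 of 76 intervals (96.1%, against 82.5% of all probes) excluded a 2-fold change. Still 0 of 76 members were called and 0 had an unadjusted p under 0.05, against 2.71% of all probes. Leaving the 2 arrays out, without the block, gave 0 of 76 called (0.0455% of all probes were) and a member median of 0.08. The spread of the members followed suit: the median SD over the 8 arrays was 0.36 for members and 0.41 for all probes, and over the 6 brighter arrays it was 0.21 for members and 0.28 for all. An SD above 1 was found for 9 of 76 members over 8 arrays and for 1 over the 6 brighter ones, COX7B2.

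COX7B2, which encodes a testis isoform of subunit 7B of complex IV in human, was the member that differed most between animals. It stood at −1.72, −5.87, −4.61 and −3.86 at 4 g, against −1.75, −5.39, −5.55 and −5.84 at 0 g, so both arrays of animal 19 stood above all others. It was well above background on both arrays of animal 19, on neither of animal 20 and on the 4 g array alone of animals 23 and 24. It thus passed the filter with 3 arrays at 4 g and 1 at 0 g. Its difference between 4 g and 0 g was 0.62 ± 0.43 (SE) and was not called. The mean of animal 19 was at least 10.3-fold higher than the bound for animal 20, for which each array's lowest signal among probes well above background was taken. The F-test between animals in limma gave an adjusted p of 0.985, so 0 of 76 members passed the adjusted threshold (0% of all probes did) and 1 of 76 (1.32%) the unadjusted one, against 2.74% of all. Its partner COX7B, measured by a probe that shares a longest run of 12 bases with that of COX7B2, showed no such split, with levels of 4.24 to 5.04 at 4 g and 4.41 to 4.61 at 0 g.

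Genes around the complexes were read from lists and none was called in either direction, on any list. All 11 probes for subunits that mitochondrial DNA encodes were above background on all arrays; 10 of 11 had a positive difference, with a median of 0.14, and ND2 (0.30) and ND6 (−0.21), subunits of complex I, had the smallest p. Their medians in the 4 animals were 0.52, −0.61, −0.11 and 0.67, and on the dim arrays they were higher by 0.52. Assembly factors were higher at 4 g for 29 of 37 genes (median 0.09), among them BCS1L, which inserts the Rieske protein into complex III, at 0.37 ± 0.23 (SE) and higher in 4 of 4 animals, and COA4, a factor for complex IV, at 0.34. Enzymes of coenzyme Q synthesis were higher for 9 of 11 (median 0.14), with COQ2 at 0.44 and COQ9 at 0.32. Other enzymes that feed electrons to coenzyme Q were higher for 6 of 8 (median 0.09), with DHODH of pyrimidine synthesis at 0.48 and PRODH of proline breakdown at 0.40.

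Citrate synthase (CS), which opens the tricarboxylic acid cycle, averaged −0.30 ± 0.46 at 4 g and 0.46 ± 0.23 at 0 g (SD, n = 4 each), a difference of −0.75 (95% interval −1.45 to −0.05). Its unadjusted p in limma was under 0.05 and the adjusted p was 1.00, and it was lower in 3 of 4 animals, so it was not called. Counts in this paragraph too stand against 53.6% of all tested probes higher at 4 g. Across the cycle and pyruvate entry 11 of 17 genes had a positive difference (median 0.08), fumarase (FH) at 0.29 in 4 of 4 animals. Regulators of mitochondrial biogenesis had 8 of 13 positive (median 0.09), with POLG at 0.27 and GABPB1 at 0.21, and carriers and uncouplers 4 of 9 (median −0.01), with SLC25A3 at 0.17 and VDAC1 at 0.15. Proteins of the mitochondrial ribosome were higher for 48 of 72 genes (median 0.05), with MRPS7 at 0.30 and MRPS14 at 0.38. Those of the cytosolic ribosome were higher for 15 of 66 (median −0.09), with RPL35A at −0.56 and RPS27L at 0.59. The dim arrays were lower by 0.22 for the mitochondrial ribosome and higher by 0.37 for the cytosolic one, in the median. Adjusted p-values for all named genes of these lists were 1.00 in limma.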

How the data were processed

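Liver RNA of 4 Holstein bulls was measured on 1-colour Agilent arrays, 1 array per animal at 4 g and at 0 g. Per the file headers, Agilent Feature Extraction 11.0.1.1 made the spot intensity values deposited as processed signals, background-subtracted and detrended brightness that is not scaled from array to array, while version 9.5 stands in the submitters' processing notes. The labels name liver as the tissue, and their extraction protocol names rumen epithelium. The authors also deposited a log2 table, which matched the log2 processed signal of each array minus its 75th percentile and served as an alternative. Signal over background sets the precision of an array, and the number of arrays limits that of a comparison.

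From the files, the 48 outlier spots and all control spots were left out, log2 was taken, spots of a probe were averaged, and the 75th percentile over an array was taken off its values. A probe was tested if at least 4 of 8 arrays had it well above background. The difference 4 g minus 0 g came from limma 3.58.1 (R 4.3.3; lmFit, eBayes, 2-sided, Benjamini-Hochberg adjustment over all tested probes), with the animal as a block, and animals were compared with the F-test of the same fit. The pairing comes from the cattle numbers in the labels and from the design text, in which each animal receives every dose in turn. The period of each dose is not in the labels and was no covariate. The 2 arrays of an animal deviated from their group means with correlations of −0.19, −0.18, 0.21 and 0.13, so these values do not bear the pairing out. Tables and figures were made with Python 3.11.15, pandas 2.3.3, numpy 2.4.6 and matplotlib 3.10.9, and the fit was tested on simulated data.

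Complexes were assigned by gene name, with NDUFA4 placed in complex IV. Current names came from RefSeq's genes on the assembly ARS-UCD2.0, matched by accession (58 member probes), symbol (24) or synonym (3), with none of its coordinates used. Where a gene had several probes, the brightest stood for it. Named members were, per complex, the 3 genes with the smallest unadjusted p, a fixed set of catalytic subunits, the tissue isoforms and their partners, and members not above background on every array. Per list of related genes, the 2 with the smallest unadjusted p were named. 1 member is counted in all totals and is not reported singly here. The members, gene lists and named sets were chosen with earlier results of these data known. Alternatives covered background correction, scaling, the filter, the block, array weights and leaving out animals, slide rows or arrays.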

Additional observations from a re-analysis of the deposited data

Results flagged for a closer look

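In the named members, the 4 arrays of each group were screened for 1 array that stood apart from the other 3 (Dixon's ratio of gap to range, at the 95% level), which chance flags in about 1 in 20 groups; 64 groups were screened. Among 8 such cases, 5 had the low value on a dim array. On the 4 g array of animal 19, SDHA (ratio 0.844, not above background there), SDHB (0.863), UQCRC1 (0.934) and COX7A2 (0.863) lay below the other 4 g arrays, COX7A2 at 0.98 against 2.81 to 3.10. On the 0 g array of animal 20, NDUFS1 (0.878) stood at −1.37 against 0.38 to 0.62 on the others. COX7B2 was high on the 0 g array of animal 19 (0.889), at −1.75 against −5.84 to −5.39. ATP5J2 was low on the 4 g array of animal 20 (0.904), at 0.40 against 0.94 to 1.00, and COX6A2 on the 0 g array of animal 24 (0.919), at −4.89 against −4.26 to −4.21. The values of these arrays stand in all results, which are also given without the dim arrays.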

How the results depend on the processing

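Of 18 alternatives chosen at the outset and 2 added after seeing the data (a term for the dim arrays, with and without the block), 0 called a member between 4 g and 0 g. The alternatives that apply to the comparison between animals also called 0 members. Without the replicate block 0 members and 0 probes were called (105 probes at an unadjusted p under 0.05, against 121 with it), and with the animal as a random block 0 and 0. Over all probes, leaving out the 2 dim arrays, without the block, called 5 probes between 4 g and 0 g, against 0 in the full fit: GIMAP4, GIMAP6, IL20RA, ULBP3 and LOC768255, named after their values were seen and all among those with 2 separate levels. Between animals, leaving out 1 animal called 0 to 1 probes, the 1 being REC8 without animal 19, and animals 19 and 20 alone called 1, LOC768255. On animals 19 and 20 alone, the medians of complexes III and IV moved to −0.061 and −0.157, against 0.09 each in the full fit; the cause was not tested. Under the other alternatives each complex median moved from its value in the full fit by less than the SD between animals. Set against 0, complex I passed that SD of 0.229 on animals 23 and 24 alone (0.246), and complex III passed its SD of 0.146 without animal 19 (0.213), on animals 23 and 24 alone (0.217) and with array weights (0.165). Leaving out 1 animal gave medians of −0.03 to 0.22 over all members, with signs that changed: without animal 23 the median was −0.03, and without animal 19 it was 0.22. For complex II the range was −0.69 without animal 20 to 0.77 without animal 19. Of 32 named members tested, 15 kept their sign under every alternative chosen at the outset, 11 higher and 4 lower at 4 g. Many of the 32 were named for a small p in this same comparison, and the alternatives reuse the same arrays. Kept signs were thus in part built in by the choice, and the share over all tested probes was not worked out. Members not well above background have only an upper bound. With 4 animals, a member's interval was typically 1.60-fold wide on either side, with no adjustment for the number of probes. A call needed an adjusted p under 0.05, and the 121 probes at an unadjusted p under 0.05 gave 0 calls in the full fit. Changes of 1.60-fold and somewhat above could therefore also go uncalled, as smaller ones would.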
